A study of Mus musculus with 9 samples.

Results

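Fatty acid burning, from uptake through beta oxidation to the citric acid cycle, was followed through 46 named genes, chosen by their place in the route from fatty acid uptake to the cycle and in the entry of pyruvate into it. Of these, 41 had a probe set with a single gene symbol in the table held, and all 41 were bright enough to be tested, out of 10646 genes tested and 14440 genes in the table. Lpl, Fabp3, Acsl1, Cpt1b and Mdh2 were not analysed here.

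The study compared 5 mouse tumours with 4 samples of skeletal muscle on Affymetrix expression arrays, with 1 array per sample. The tumours arose in mice labelled MYF-5 CRE/SSM2 and were described as SYT-SSX tumours. The SYT-SSX fusion drives human synovial sarcoma, and Myf5, whose gene names the Cre driver, is a transcription factor of muscle precursor cells. Tumour 1 was labelled CC23, tumour 2 CC17-B, tumour 3 CC17-A, tumour 4 SSM5 and tumour 5 SSM4. Whether tumours 2 and 3, both labelled CC17, came from 1 mouse is not said. Muscles 1 to 4 were wild type and came from hind limb, the intercostal site, forelimb and hind limb again. Age, sex and strain are not given in the sources used here, and genotype differed together with tissue in every comparison. Nothing in the labels says that each array came from its own animal, so p-values measure the spread between these samples, which may be technical.

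In a muscle fibre, fatty acids enter the cell, are joined to coenzyme A, cross the inner mitochondrial membrane as carnitine esters and are shortened by the beta oxidation spiral. The acetyl-CoA so made meets that from pyruvate, delivered by the pyruvate dehydrogenase complex, and both are burned in the citric acid cycle. Pyruvate dehydrogenase kinases switch the complex off by phosphorylation, which spares glucose when fat is the fuel.

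The levels below are MAS5 intensities on a linear scale, scaled so that the arrays share 1 trimmed mean, and a log2 fold change or log2 difference is tumour minus muscle on log2(intensity + 16). Before scaling, the trimmed means of the arrays ran from 430.2 to 610.03. The floor of an array, below which a level was taken as not above background, was its 40th percentile, between 96.5 and 137. A gene was called at a limma adjusted p under 0.05. Of the 41 members tested, 37 were at or above the floor on all 9 arrays, and 1, Pdk3, passed the filter on dim genes through the tumours alone.

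The intercostal muscle array stood apart from the limb muscles. Ucp1, the uncoupling protein that defines brown fat, read 35.5, 18013, 69.00 and 11.2 on muscles 1 to 4, and Cidea, a lipid droplet protein of brown fat, read 9.09, 10583, 4.30 and 18.01. On tumours 1 to 5, Ucp1 read 7.001, 563, 8.07, 3.87 and 4.02, and Cidea read 115, 874, 5.39, 2.77 and 41.7. Both were therefore far above the floor on the intercostal array and, at lower levels, on tumour 2. The summed level of the 6 white adipocyte markers in the table was 131258 on the intercostal array, 29565 to 37222 on the limb arrays and 826 to 36349 in the tumours. Adipoq, which encodes the fat cell hormone adiponectin, read 4557, 40934, 2651 and 3464 in muscle and 134, 4218, 95.1, 4920.5 and 12463 in tumours. For the 5 brown adipocyte markers the sum was 30405, 1190.2 to 2166 and 470.1 to 2039 in the same order. Ucp1 and Cidea are among these 5 and made up most of the intercostal sum. Of the 3 brown adipocyte markers bright enough to test, 2 were at least 2-fold above the limb mean on the intercostal array. The other, the coactivator Ppargc1a, was lower there, at 778 against a limb mean of 1238. The 8 slow and oxidative fibre markers in the table summed to 135158 on the intercostal array and 65843 to 80926 on the limb arrays. Results are therefore given with this array and without it. The 20 sarcomere markers matched the muscle label, since their sum was at least 671841 in the 4 muscles and between 3176 and 184529 in the tumours. Within bulk tissue, fewer cells of a type and less RNA per cell cannot be told apart.

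Most genes of the route were lower in the tumours. Of the 41 tested, 34 were called lower, 3 were called higher (Acsl5, Cpt1a and Pdk3) and 4 were not called (Acsl3, Pdk1, Idh2 and Suclg2). Among all genes tested, 18.0% were called lower and 30.1% higher. The median log2 fold change was −1.60 over the members and 0.23 over all genes tested, and 31 of the 34 lower members were at least 2-fold lower. Every tumour lay below every muscle array for 31 members, against 15.2% of all genes tested, and above it for 2 members, against 25.3%. Without the intercostal array, 32 members were called lower, against 17.4% of all genes, and 3 were called higher, against 29.2%. The calls lost were those of Echs1 and Pdha1, and the median log2 fold change of the members was −1.48.

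**Figure D1:**
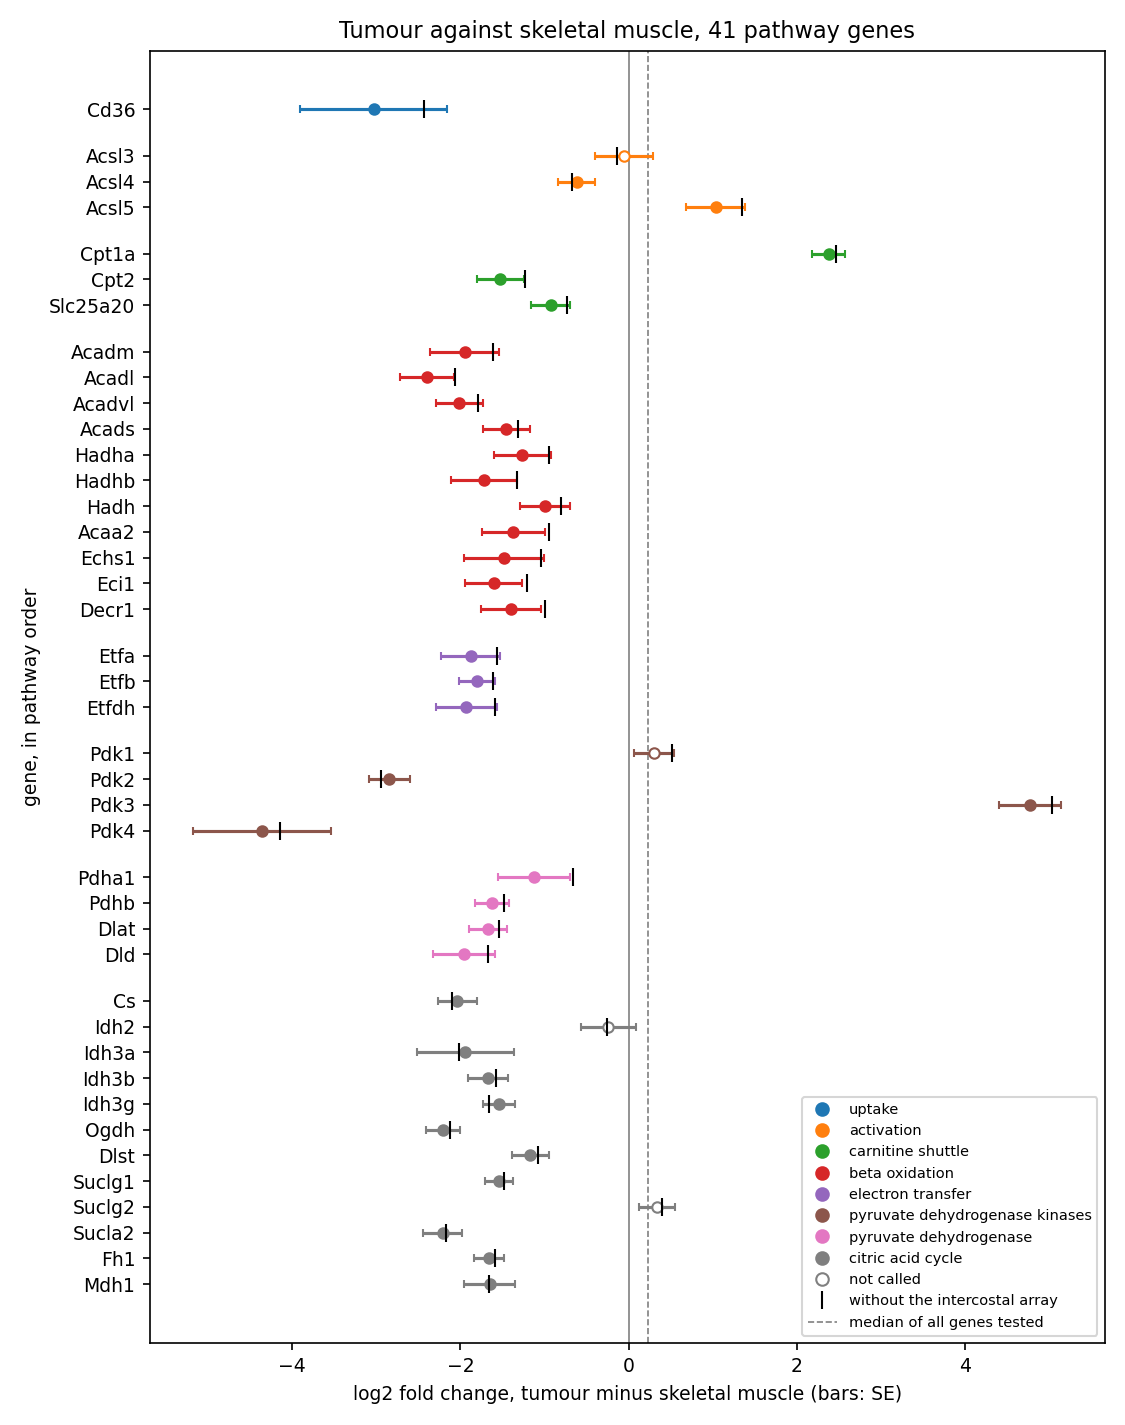
Log2 fold change of each of the 41 tested genes, tumour minus muscle, by step of the route (points, bars are the SE, open points were not called, ticks are values without the intercostal array, the dashed line is the median of all genes). Cpt1a at 2.38 and Pdk3 at a fitted 4.77 lie far to the side of higher levels in tumours, and Pdk4 at −4.35 is the lowest.

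The median shift of the members kept its sign under the 4 other scalings tried, but its size changed. Higher calls made up 62.6% of all calls as reported, 44.3% with arrays centred on their medians and 78.98% with arrays centred on 64 genes of ribosomal proteins and the proteasome, called the ribosome-proteasome centring below. The median over the members was −1.93 and −1.24 under those centrings, and the median over all genes −0.09 and 0.60. Under the second, 26 members were called lower, against 10.8% of all genes, and 3 higher, against 40.4%.

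Fatty acid uptake was represented by Cd36 (1450883_a_at), the membrane protein that carries long-chain fatty acids into muscle, fat and capillary cells. Its level was 3322, 18832, 3716 and 3572 on muscles 1 to 4 and 209, 942, 119, 1347 and 3136 on tumours 1 to 5. The intercostal array was far above the limb arrays, and tumour 5 was close to limb muscle and tumour 3 the lowest, below the floor of its array. With tumour 3 taken at that floor, the tumours spanned at least 23.7-fold. The groups did not overlap, and the log2 fold change was −3.03 (SE 0.88, adjusted p = 0.0146). Against limb muscle alone it was −2.43 (adjusted p = 0.0465). The order of the tumours, 5 above 4, 2, 1 and 3, was also the order of Adipoq. The summed white adipocyte markers put tumour 2, at 26345, above tumour 4, at 19342, with the rest of the order the same. The part of fat cells in the Cd36 difference was not tested. Gpihbp1, an endothelial marker that holds lipoprotein lipase on capillaries, read 1856, 1595, 2045 and 1829 in muscle and 643, 983, 576, 253 and 292 in tumours. Among tumours it was lowest in 4 and 5, where Cd36 was highest. Of 11 tested endothelial markers, 7 were called lower, against 18.0% of all genes. Their sum was 8416 to 9055 on limb arrays and 3081 to 5793 in tumours, a difference whose part in the Cd36 values was not tested either.

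The acyl-CoA synthetases, which activate fatty acids by joining them to coenzyme A, did not move together. Acsl5 (1428082_at) read 743, 1681, 841 and 559.9 in muscle and 1311, 1667, 3489, 1572 and 1624 in tumours. Tumour 3 was the highest of all, the intercostal array lay among the tumours, and the groups overlapped. Its log2 fold change was 1.03 (SE 0.35, adjusted p = 0.0305), and against limb muscle alone 1.34 (adjusted p = 0.00597). Acsl4 (1433531_at), a synthetase with a preference for arachidonic acid, was at 1743 ± 140.5 (SD, n = 4) in muscle and 1163 ± 297 (SD, n = 5) in tumours, a log2 difference of −0.61 (SE 0.22, adjusted p = 0.0383). The Acsl4 call was lost under 8 of 25 alternatives, among them the values as deposited (adjusted p = 0.0761) and the ribosome-proteasome centring (adjusted p = 0.449). Acsl3 (1452771_s_at), a synthetase of the endoplasmic reticulum and lipid droplets, was at 958 ± 169 (SD, n = 4) in muscle and 1034 ± 671 (SD, n = 5) in tumours, with tumour 4 at 2219 and the groups overlapping. Its log2 difference of −0.05 (adjusted p = 0.913) did not pass the test. The Acsl5 call was lost with arrays centred on their medians (adjusted p = 0.103), and the Acsl3 value turned positive under the ribosome-proteasome centring, at 0.31, and under other alternatives given with the processing.

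Cpt1a, the gene for the liver-type carnitine palmitoyltransferase of the outer membrane, was higher in every tumour. This enzyme makes the carnitine esters that commit fatty acids to mitochondria, while muscle is known for the isoform from Cpt1b. Cpt1a (1460409_at) read 294, 447, 306 and 464 on muscles 1 to 4 and 2132, 1760.3, 1863, 1995 and 2226 on tumours 1 to 5. All 5 tumours lay well above all 4 muscles, and the spread within each group was small beside the gap. The means were 378 ± 90.1 (SD, n = 4) in muscle and 1995 ± 190.2 (SD, n = 5) in tumours, a log2 difference of 2.38 (SE 0.20, adjusted p = 1.09e-05). Its other probe set, 1438156_x_at, also had a positive difference of 2.28. The 250 bases before its start are shown because Cpt1a is the member of the shuttle that rose; they were taken from RefSeq on GRCm38.p6 at chr19:3323051-3323300, plus strand, and capitals mark the 6-letter half-site AGGTCA or its reverse complement.
Cpt1a: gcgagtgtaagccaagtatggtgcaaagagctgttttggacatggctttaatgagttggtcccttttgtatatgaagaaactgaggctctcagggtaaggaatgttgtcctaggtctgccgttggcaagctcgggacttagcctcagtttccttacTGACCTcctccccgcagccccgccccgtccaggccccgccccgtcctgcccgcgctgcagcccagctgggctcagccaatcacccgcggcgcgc

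The remaining genes of the shuttle were lower. Cpt2 (1416772_at), the inner membrane transferase that turns the esters back into acyl-CoA, read 1779.6, 3913, 1891 and 1487 in muscle and 547, 834, 791, 658 and 819 in tumours. Its groups did not overlap, and the log2 fold change was −1.52 (SE 0.28, adjusted p = 0.00104). Slc25a20 (1423108_at), the carrier that exchanges carnitine esters for free carnitine, read 4012, 7442, 4309.8 and 4567 in muscle and 3307, 3013, 2019, 2508 and 2264 in tumours. Here too every tumour lay below every muscle. Its log2 fold change was −0.93 (SE 0.23, adjusted p = 0.00711), a call that was lost under the ribosome-proteasome centring (adjusted p = 0.0908).

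All 11 tested genes of the beta oxidation spiral were called lower, against 18.0% of all genes, with log2 fold changes from −2.40 to −0.99. Without the intercostal array 10 of them stayed called, where 17.4% of all genes were called lower. The acyl-CoA dehydrogenases take the first step, each for a range of chain lengths. Acadm (1415984_at), the medium-chain enzyme, read 9918, 25211, 10053 and 9344 on muscles 1 to 4 and 1751, 4298, 2025, 3720.1 and 5825 on tumours 1 to 5. The limb muscles were close to each other at 9772 ± 376 (SD, n = 3), the intercostal array was far above them, and the tumours lay below both, with tumour 5 the highest of them. The log2 fold change was −1.95 (SE 0.41, adjusted p = 0.00238), or −1.61 (adjusted p = 0.00598) against limb muscle alone. Acadl (1448987_at), the long-chain enzyme, read 6131, 16916, 8150.2 and 5954 in muscle and 1149.95, 2051, 1314, 1516 and 2147 in tumours and had the largest fall of the spiral, −2.40 (SE 0.32, adjusted p = 1.58e-04). Acadvl (1424184_at), the very-long-chain enzyme of the inner membrane, read 7066, 13578, 8205 and 6753 in muscle and 2519, 2378, 1290.1, 1881 and 2847 in tumours, a log2 difference of −2.01 (SE 0.28, adjusted p = 1.94e-04). Acads (1460216_at), the short-chain enzyme, read 1024, 1694, 1198 and 1190.3 in muscle and 647, 374, 614, 463 and 259 in tumours, a log2 difference of −1.45 (SE 0.28, adjusted p = 0.00148). For all 4 dehydrogenases the tumours and muscles did not overlap. The 250 bases before the start of Acadm are shown beside those of Cpt1a, since both hold the half-site while their levels moved in opposite directions; the stretch is chr3:153944644-153944893, minus strand, GRCm38.p6, from RefSeq, with the half-site in capitals.
Acadm: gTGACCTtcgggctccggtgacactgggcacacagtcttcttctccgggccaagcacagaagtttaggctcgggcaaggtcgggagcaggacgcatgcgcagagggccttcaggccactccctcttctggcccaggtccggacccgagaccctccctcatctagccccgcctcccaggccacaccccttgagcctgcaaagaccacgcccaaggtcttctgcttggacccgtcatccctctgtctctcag

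The half-site is the core of the sites bound by several nuclear receptors, among them the peroxisome proliferator-activated receptors. In Cpt1a it began 94 bases before the start, and in Acadm 249 bases before it. A search of both strands found AGGTCA in 7 of the 49 promoter entries that 41 of the 46 named genes had, against 14.02% of all 32851 mouse promoters in the table. The others with it were Acadvl, Cd36, Echs1, Fh1 and Sucla2. The full direct repeat of the half-site with 1 base between its copies, known as DR1, was in 0 of the 49 and in 0.033% of all. The longer TCAAGGTCA, which contains AGGTCA, was in 0 of the 49 and in 0.387% of all. This says only that these letters are not in these windows. The half-site search was chosen after the first pair of motifs had been counted.

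Hadha and Hadhb encode the alpha and beta subunits of the trifunctional protein, which carries out the later steps on long chains. Hadha (1452173_at) read 2634, 7363, 3425 and 3104 in muscle and 1021, 1346, 1423, 1907 and 2544 in tumours. Hadhb (1426522_at) read 7143, 23596, 9169 and 7538 in muscle and 1727, 3026, 2791, 4339 and 4793 in tumours. Both subunits were lowest in tumour 1 and highest, among tumours, in tumour 5, and neither overlapped between groups. Their log2 fold changes were −1.26 (SE 0.34, adjusted p = 0.00965) and −1.72 (SE 0.39, adjusted p = 0.00410). Eci1 (1418321_at), an isomerase, and Decr1 (1419367_at), a reductase, prepare unsaturated chains for the spiral. Eci1 read 3034, 10515, 4038 and 3451 in muscle and 1251, 1435, 1183, 1837 and 1942 in tumours. Decr1 read 2775, 9069, 2949.8 and 3139 in muscle and 1197, 1347, 1188, 1484 and 2409 in tumours. Eci1 fell by 1.60 on the log2 scale (SE 0.34, adjusted p = 0.00275) and Decr1 by 1.40 (SE 0.36, adjusted p = 0.00779). Acaa2 (1428146_s_at), the thiolase that releases acetyl-CoA, read 2594, 10968, 4697 and 3254 in muscle and 1439, 1765, 1391, 1941 and 2447 in tumours, a log2 difference of −1.37 (SE 0.37, adjusted p = 0.0109).

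The calls of 2 enzymes of the spiral were less firm. Hadh (1455972_x_at), the dehydrogenase of medium and short chains, read 18068, 30402, 18591 and 16813 in muscle and 13217, 16833, 7894, 8246 and 7665 in tumours. Tumour 2 reached the lowest muscle array, and the log2 difference of −0.99 (SE 0.29, adjusted p = 0.0159) became −0.34 (adjusted p = 0.326) under quantile normalization. Of the other Hadh probe sets, 1460184_at had a difference of −1.10 with no overlap and 1436756_x_at one of −0.47 with overlap. Echs1 (1452341_at), the short-chain hydratase, read 1833, 7142, 2652 and 1846 in muscle and 462, 886, 832, 1497 and 1997 in tumours, so tumour 5 lay above both hind limb arrays. Its log2 difference of −1.48 (SE 0.48, adjusted p = 0.0247) was −1.04 (adjusted p = 0.0657) against limb muscle alone. Under the ribosome-proteasome centring, 6 of the 11 genes of the spiral were called lower, against 10.8% of all genes.

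Electrons from the dehydrogenases pass to the electron transfer flavoprotein and its ubiquinone oxidoreductase, and all 3 of these genes fell. Etfa (1423972_at), the alpha subunit, read 6446, 16127, 7140.4 and 6898 in muscle and 1163, 3198, 2041, 2757 and 3008 in tumours. Etfb (1428181_at), the beta subunit, read 8539.7, 15379.8, 9378 and 9049 in muscle and 3165, 2691, 2595, 2872 and 3448 in tumours, and Etfdh (1451084_at), the oxidoreductase, read 3090.2, 9174, 3801 and 3709.8 in muscle and 742, 1287, 826, 1411 and 1909 in tumours. Tumour 1 was the lowest for Etfa and Etfdh and tumour 3 for Etfb, and no tumour reached a muscle level. The log2 fold changes were −1.88 (SE 0.35, adjusted p = 0.00127), −1.80 (SE 0.21, adjusted p = 6.53e-05) and −1.93 (SE 0.36, adjusted p = 0.00123), and against limb muscle alone −1.57 (adjusted p = 0.00278), −1.61 (adjusted p = 8.84e-05) and −1.58 (adjusted p = 0.00215).

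Pyruvate dehydrogenase is built of a heterodimeric E1 (Pdha1 and Pdhb), the acetyltransferase E2 (Dlat) and the lipoamide dehydrogenase E3 (Dld). All 4 genes were called lower, against 18.0% of all genes. Pdhb (1416090_at) read 12294, 17723, 11972 and 11888 on muscles 1 to 4 and 3558, 4715, 4172, 3942 and 5364 on tumours 1 to 5. The highest tumour was well below the lowest muscle, and the log2 fold change was −1.62 (SE 0.20, adjusted p = 9.06e-05). Dlat (1426264_at) read 2855, 4607, 3618 and 2961 in muscle and 804, 1103, 905, 1288 and 1347 in tumours, a log2 difference of −1.67 (SE 0.22, adjusted p = 1.42e-04). Dld (1423159_at), which is shared with the 2-oxoglutarate dehydrogenase complex, read 4125, 8629.99, 4269.9 and 3416 in muscle and 594, 1474, 954, 1589 and 2016 in tumours, a log2 difference of −1.96 (SE 0.37, adjusted p = 0.00135). Neither overlapped between the groups. Pdha1 (1449137_at), the subunit that the kinases phosphorylate, read 1275, 4822, 1610.4 and 1093 in muscle and 445, 1004, 797, 833 and 1259.95 in tumours, and tumour 5 lay among the limb muscles. Its log2 difference of −1.13 (SE 0.43, adjusted p = 0.0478) was −0.66 (adjusted p = 0.110) against limb muscle alone, and it missed the threshold under 14 of 25 alternatives.

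The 4 pyruvate dehydrogenase kinases differed in direction. Pdk3 (1426410_at) rose, Pdk2 and Pdk4 fell and Pdk1 was not called. Pdk3 read 10.2, 39.9, 11.4 and 12.3 on muscles 1 to 4, below the floor on all of them, and 435, 956, 852, 1474 and 978 on tumours 1 to 5. All tumours were above the floor, and the level was at least 8.52-fold higher than in muscle (adjusted p = 8.41e-06), taking each muscle array at its floor. Since Pdk3 passed the filter on dim genes through the tumours alone, the fit was also made with no filter (adjusted p = 9.93e-06). Pdk2 (1448825_at), an isoform of many tissues, read 4072, 2937, 3858 and 3769 in muscle and 336, 353, 605, 592 and 673 in tumours. Its groups were far apart, with means of 3659 ± 498 (SD, n = 4) and 512 ± 156 (SD, n = 5) and a difference of −2.84 (SE 0.25, adjusted p = 1.21e-05). Pdk2 was not raised on the intercostal array, which held 0.753 times the limb mean.

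Pdk4 (1417273_at), the isoform known to rise in muscle on fasting, read 8168, 23725, 17303 and 15993 on muscles 1 to 4 and 1417, 1372, 203, 138 and 3408 on tumours 1 to 5. Tumours 3 and 4 were the lowest, not far above the floor, tumour 5 was the highest tumour, and every tumour lay below every muscle. The log2 fold change was −4.35 (SE 0.82, adjusted p = 0.00125), or −4.14 (adjusted p = 0.00494) against limb muscle alone. As a percentage of the limb mean, tumours 1 to 5 held 10.3, 9.93, 1.47, 1.001 and 24.7. Their order, 5 above 1, 2, 3 and 4, was also that of the sarcomere sum, which was 143276, 52747, 11601, 3176 and 184529 on tumours 1 to 5, and the part of muscle fibres in the Pdk4 values was not tested. Pdk1 (1423747_a_at), a kinase induced by hypoxia, read 1167, 2066, 1271 and 1072 in muscle and 1525, 2248, 1701, 1726 and 1288 in tumours, at a log2 difference of 0.31 (adjusted p = 0.313) that did not pass the test. Its probe sets disagreed, since 1435836_at had a difference of −0.83.

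The levels of Pdk2 and Pdk3 were also taken as a ratio within each array, which hardly depends on how arrays are scaled. Since Pdk3 was below the floor on every muscle array, it was held at the floor there, and the change of the ratio is a bound. This treatment was chosen after the levels were seen. The ratio of Pdk2 to Pdk3 was at least 53.96-fold lower in tumours than in muscle, a log2 difference of −5.75 (exact permutation test, two-sided, p = 0.0159, also after adjustment over 2 pairs). This is the smallest p that 126 splits of 9 arrays allow. Every tumour lay below every muscle for Pdk2 and above every muscle for Pdk3, so the test could give no other p. It adds nothing to the separation already seen for each gene. As a description, the log2 ratio of Pdk4 to Pdk1 went from 3.48 ± 0.49 (SD, n = 4) in muscle to −1.18 ± 2.04 (SD, n = 5) in tumours.

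The stretches before the starts of Pdk3 and Pdk4 are given because these genes had the largest fitted changes in either direction among the 41. They come from RefSeq on GRCm38.p6, at chrX:93832151-93832400, minus strand and chr6:5496279-5496528, minus strand, and hold no capitals, as neither has the half-site.
Pdk3: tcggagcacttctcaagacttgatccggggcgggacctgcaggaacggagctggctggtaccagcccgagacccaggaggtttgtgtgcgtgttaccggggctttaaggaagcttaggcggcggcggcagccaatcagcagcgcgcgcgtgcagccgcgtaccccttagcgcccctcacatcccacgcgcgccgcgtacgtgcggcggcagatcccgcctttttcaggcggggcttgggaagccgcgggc
Pdk4: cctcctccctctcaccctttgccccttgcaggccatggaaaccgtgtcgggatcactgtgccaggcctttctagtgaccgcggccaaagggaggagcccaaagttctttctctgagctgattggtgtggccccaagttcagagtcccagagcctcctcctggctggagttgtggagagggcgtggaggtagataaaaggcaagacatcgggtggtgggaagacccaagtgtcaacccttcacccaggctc

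The Pdk3 stretch held 29 CpG dinucleotides and 67.6% G and C, and that of Pdk4 held 6 and 58.8%. The median was 15 over the promoters of the named genes and 6 over all mouse promoters, at 59.6% and 52.4% G and C. TATAAA, read in the direction of transcription, was in 0 of the 49 promoters and in 7.59% of all.

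In the citric acid cycle, 10 of 12 tested genes were called lower, with and without the intercostal array, against 18.0% and 17.4% of all genes. The others, Idh2 and Suclg2, were not called. Cs (1450667_a_at), citrate synthase, which opens the cycle and is widely used as a measure of mitochondrial content, read 20159, 17095, 21621 and 19268 on muscles 1 to 4 and 6518, 6441, 3947, 3528 and 4033 on tumours 1 to 5. On this probe set the intercostal array was the lowest muscle, and every tumour was far below it. The log2 fold change was −2.04 (SE 0.23, adjusted p = 5.38e-05), and −2.10 (adjusted p = 1.50e-04) against limb muscle alone. On 1422577_at the intercostal array was instead the highest muscle, at 6058 against 2694, 3422 and 2552 on muscles 1, 3 and 4. On 1422578_at the 4 muscles were close, at 11748, 12940, 12916 and 11800.

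The isocitrate dehydrogenase of the cycle that uses NAD has subunits from Idh3a, Idh3b and Idh3g, and all were called lower. Idh3g (1416788_a_at) read 15459.6, 10724, 14014 and 14453 in muscle and 5551, 5168, 3828, 4149 and 4669 in tumours, a log2 difference of −1.54 (SE 0.19, adjusted p = 9.17e-05). Idh3b (1418886_s_at) read 10228, 15611, 15731 and 10492 in muscle and 4648, 5007, 3091, 3093 and 4502 in tumours, a log2 difference of −1.67 (SE 0.23, adjusted p = 1.93e-04). A second Idh3b probe set, 1418885_a_at, went the other way, at 849, 3498, 736 and 705 in muscle and 2361, 2642, 2175, 2243 and 1976 in tumours. On that probe set the tumours lay above the limb muscles and below the intercostal array. A further one, 1441271_at, was lower in tumours, as the one used was. It read 477, 588, 508 and 640 in muscle and 110, 27.3, 59.5, 5.38 and 86.8 in tumours, all 5 of these below the floor. The probe sets of Idh3b thus do not give 1 answer. Idh3a (1447701_x_at) read 1186, 780.1, 549 and 1313 in muscle and 441, 209.7, 435, 37.1 and 303 in tumours, with tumour 4 below the floor and a difference of −1.94 (SE 0.58, adjusted p = 0.0166). Without muscle 4 the Idh3a value missed the threshold (adjusted p = 0.0517). Idh2 (1453601_at), the NADP-dependent enzyme, read 131, 113, 110.5 and 116 in muscle and 91.6, 143, 135, 78.7 and 59.96 in tumours. These levels are near the floor on all arrays, and the log2 difference of −0.24 (adjusted p = 0.568) did not pass the test.

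The 2-oxoglutarate dehydrogenase complex fell in its own subunits. Ogdh (1451274_at), the E1 component, read 4991, 6235, 5205 and 4627 in muscle and 775, 1126, 1259.8, 1255 and 1273 in tumours. Tumours 2 to 5 were close to each other, tumour 1 was lower, and all lay far below muscle, at a log2 difference of −2.21 (SE 0.20, adjusted p = 1.47e-05). Dlst (1423710_at), the E2 component, read 3001, 4055, 3607 and 2786 in muscle and 1636, 1253, 1070.04, 1556 and 1998 in tumours, a log2 difference of −1.17 (SE 0.22, adjusted p = 0.00121). With all Dlst probe sets averaged it was −0.33 (adjusted p = 0.224).

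The 2 forms of succinyl-CoA ligase share the alpha subunit from Suclg1 and differ in the beta subunit, which is from Sucla2 in the form that makes ATP and from Suclg2 in the form that makes GTP. Sucla2 (1452206_at) read 16956, 19326, 17444 and 16787 on muscles 1 to 4 and 3430.2, 5378, 2431, 3899 and 4474 on tumours 1 to 5. Suclg2 (1435841_s_at) read 2938, 3490.2, 2674 and 3103 in muscle and 2505, 3664, 4749, 4441 and 4254 in tumours. Sucla2 was lower in every tumour, while the Suclg2 levels overlapped, with tumours 2 to 5 above the muscles and tumour 1 below them. The log2 fold changes were −2.21 (SE 0.23, adjusted p = 3.40e-05) and 0.33 (SE 0.21, adjusted p = 0.224), and the latter did not pass the test. Suclg1 (1415891_at) read 8904, 11344, 10737 and 9757 in muscle and 3100.3, 3788, 3150.4, 3689.99 and 3742 in tumours, a log2 difference of −1.54 (SE 0.17, adjusted p = 4.16e-05).

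The log2 ratio of Sucla2 to Suclg2 within an array was 2.53 ± 0.12 (SD, n = 4) in muscle and −0.01 ± 0.61 (SD, n = 5) in tumours. No tumour came near the muscle values, the highest tumour being at 0.55 and the lowest muscle at 2.43. The difference of −2.54, a 5.83-fold change of the ratio, had an exact permutation p of 0.0159, two-sided and adjusted over 2 pairs. With all probe sets of each gene averaged it was −1.21 (exact permutation, adjusted p = 0.0476).

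Fumarase and the cytosolic malate dehydrogenase fell as well. Fh1 (1424828_a_at), fumarase, read 10747, 14262, 11648 and 12149 in muscle and 3548, 4580.2, 3400.3, 3412 and 4371 in tumours, a log2 difference of −1.66 (SE 0.18, adjusted p = 4.16e-05). Mdh1 (1436834_x_at), the cytosolic malate dehydrogenase that serves the malate-aspartate shuttle, read 42126, 41532, 44983 and 42063 in muscle and 24081, 19691, 11556, 8973 and 9327 in tumours. On this probe set the muscles were nearly alike, and tumours 1 and 2 held more than tumours 3 to 5. Its log2 fold change was −1.65 (SE 0.31, adjusted p = 0.00115). Mdh1 1454925_x_at had the same pattern, but 1448172_at did not. The latter read 13863, 28379, 18760 and 15493 in muscle and 3083, 5606, 5073, 5143 and 6208 in tumours, with tumour 1 the lowest. Its difference was −1.91.

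**Figure D2:**
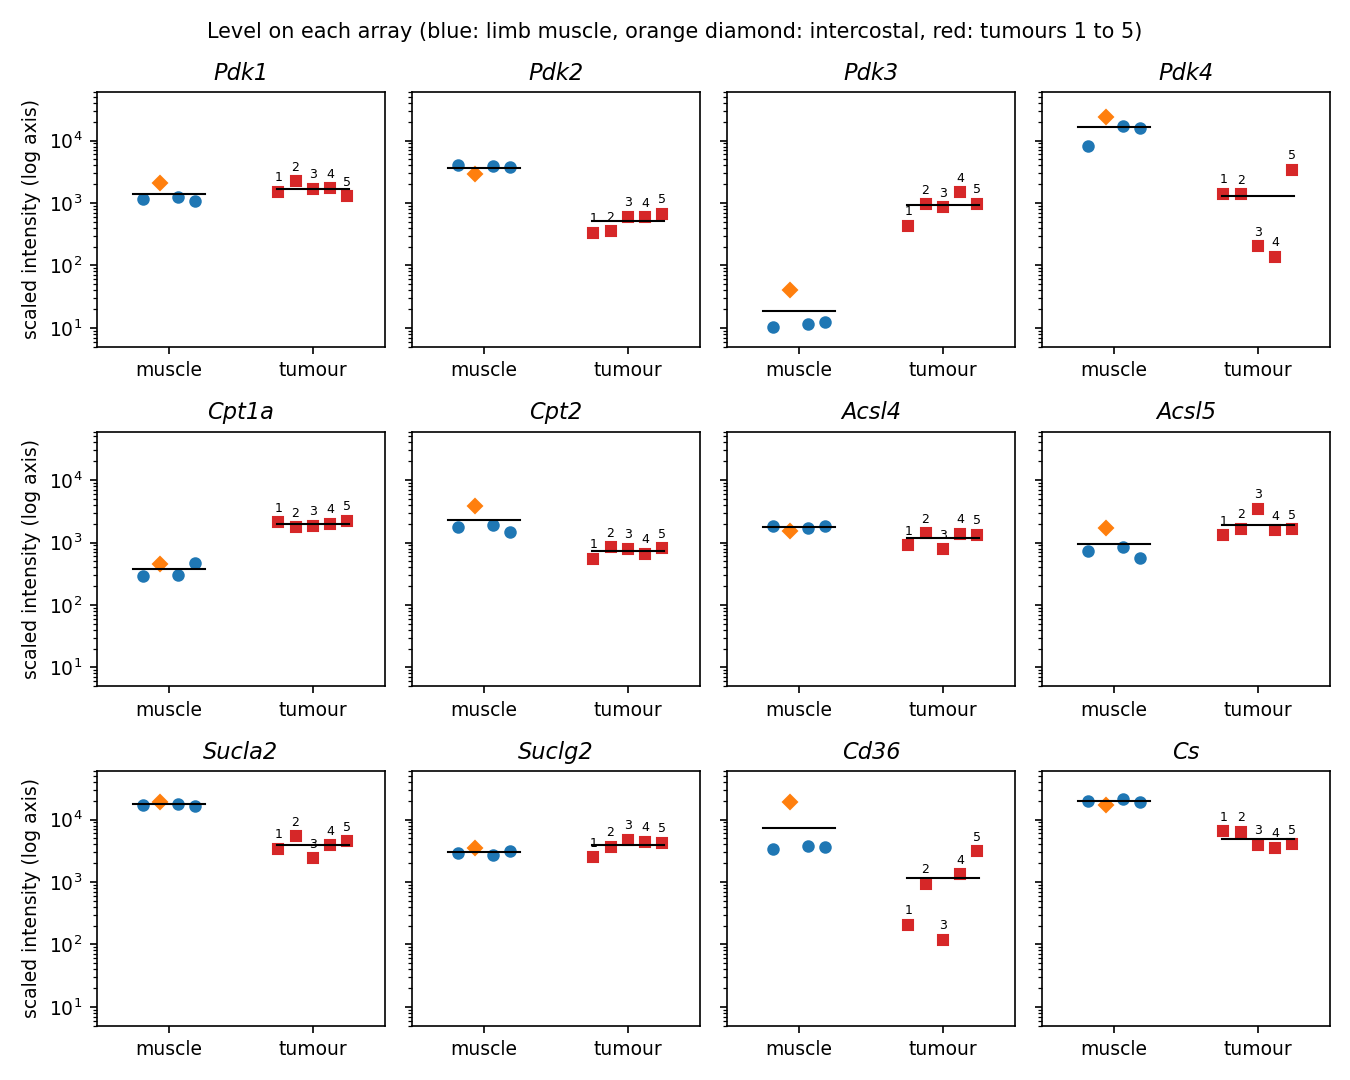
Scaled intensity of 12 genes on each array, on a log axis, 1 panel per gene; circles are limb muscles, the diamond is the intercostal muscle, squares are tumours 1 to 5 and lines are group means. Pdk3 and Cpt1a lie higher in every tumour, Pdk2, Pdk4, Cpt2, Sucla2 and Cs lower in every tumour, and Suclg2 and Pdk1 overlap.

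By the brightest probe set of each gene, the intercostal array stood further above limb muscle for beta oxidation than for the citric acid cycle. Of the 41 members, 16 were at least 2-fold higher on the intercostal array than the limb mean, against 8.08% of all genes tested, and it was the highest muscle for 31 members, against 31.8% of all genes. The median of intercostal over limb was 1.71 for the members and 0.964 for all genes. In beta oxidation 8 of 11 genes were at least 2-fold higher and the median was 2.58, while in the citric acid cycle 0 of 12 were and the median was 1.15. Cd36 had 5.32, Pdha1 3.64, Echs1 3.38, Acaa2 3.12 and Decr1 3.07 times the limb mean, whereas Cs had 0.840, Idh3g 0.732 and Pdk2 0.753. Other probe sets differed for some genes of the cycle. On the intercostal array Cs 1422577_at read 6058, against 2694, 3422 and 2552 on muscles 1, 3 and 4. Idh3b 1418885_a_at read 3498 there, against 849, 736 and 705. Idh3g 1416789_at was not raised, at 11425.5 against 11071, 11802 and 11665. With 1 intercostal array there is no test, and the part of brown fat, white fat or slow fibres in these values was not tested. The median log2 fold changes of beta oxidation and of the cycle were −1.48 and −1.66 with all arrays, and −1.21 and −1.62 against limb muscle alone. The difference between the steps was not tested.

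**Figure D3:**
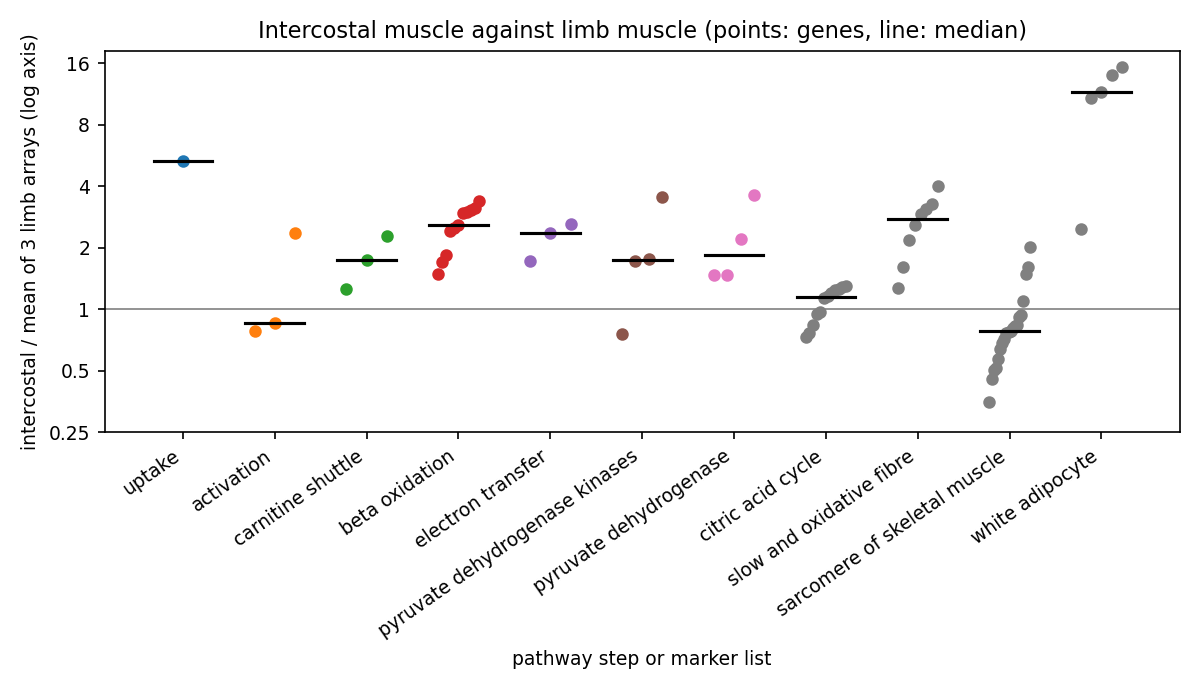
Intercostal level over the mean of the 3 limb arrays on a log axis, for the genes of each step (points, with the median as a line) and for 3 marker lists. The median is 2.58 for beta oxidation, 1.15 for the citric acid cycle, 2.76 for slow fibre markers, 0.781 for sarcomere markers and 11.5 for white adipocyte markers.

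Levels also varied among the tumours. The median ratio of the highest to the lowest array was 2.03 over the 5 tumours and 1.21 over the 3 limb muscles, which are fewer arrays. Only Cd36, Pdk4, Idh3a and Echs1 spanned at least 4-fold among tumours, also with the tumour below the floor for Cd36 and that for Idh3a taken at it. Of the 34 lower members, tumour 1 was the lowest tumour for 15 and tumour 3 for 13, while tumour 5 was the highest for 20. The median beta oxidation gene held 34.3, 41.99, 39.4, 50.2 and 59.6% of its limb level in tumours 1 to 5, and the median gene of the citric acid cycle 38.1, 39.2, 28.2, 26.9 and 34.5%.

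By the median gene, the tumours ran in the order 5, 4, 2, 3 and 1 for beta oxidation and 5, 1, 2, 3 and 4 for the sarcomere markers. The median sarcomere gene held 8.49, 2.94, 1.20, 0.116 and 16.2% of its limb level in tumours 1 to 5, and 16 of 20 sarcomere markers were below the floor in tumour 4. In that tumour the median held 50.2% for beta oxidation, 39.9% for electron transfer, 40.7% for pyruvate dehydrogenase and 26.9% for the cycle. The white adipocyte markers had a median of 4.69, 71.1, 2.67, 72.6 and 186%, so the tumours with more of them, 5, 4 and 2, were also the higher ones for beta oxidation. The part of muscle fibres and of fat cells in these levels was not tested.

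**Figure D4:**
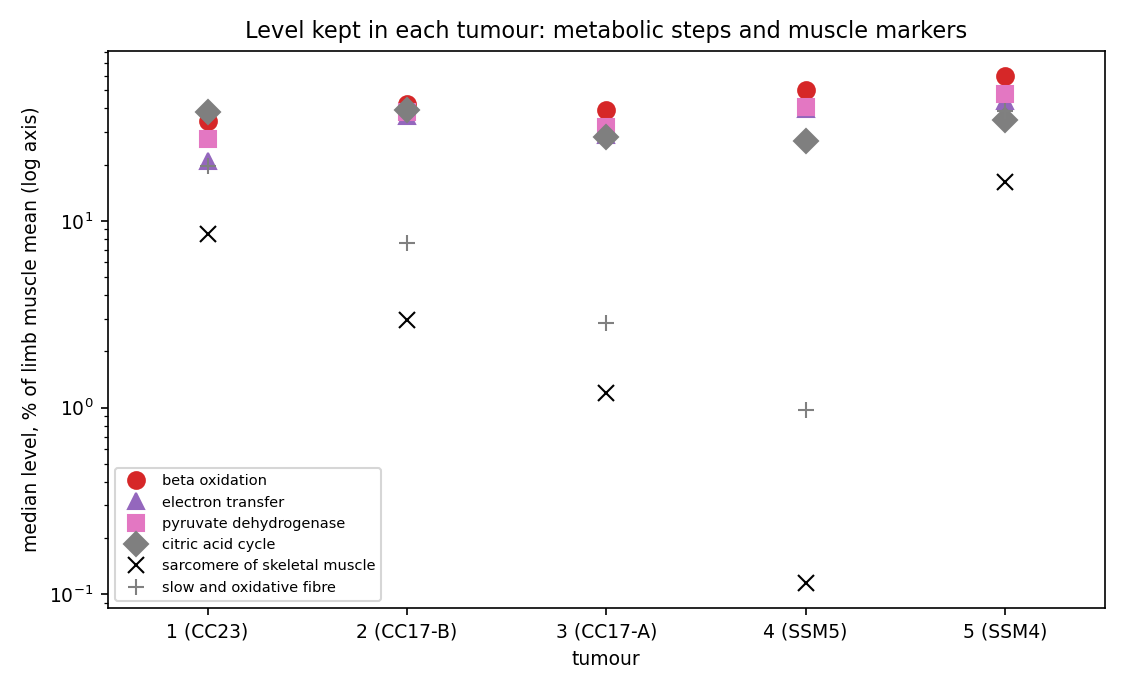
Median level in each tumour of the genes of 4 steps and of the sarcomere and slow fibre markers, as a percentage of the mean of the 3 limb muscles, on a log axis. The steps lie between 21.00% and 59.6% in every tumour, while the sarcomere median runs from 0.116% to 16.2%.

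Of the 41 genes, 22 had more than 1 probe set. Among 31 further probe sets bright enough to test, 25 had the sign of the one used and 6 did not. The 6 were 2 of Acsl3 and 1 each of Dlst, Idh3b, Pdk1 and Sucla2, the last at a difference of 0.00.

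Lists of neighbouring pathways were described with the same fit. Among other genes of fatty acid uptake and activation, 8 of 12 tested were called lower and 1 higher, against 18.0% and 30.1% of all genes. Acacb, the acetyl-CoA carboxylase whose malonyl-CoA restrains carnitine palmitoyltransferase, read 2258, 3371, 2547 and 2246 in muscle and 348, 109, 202, 110.4 and 266 in tumours, a log2 difference of −3.66 (adjusted p = 1.48e-05). Acsl6, a further acyl-CoA synthetase, had a fitted −3.21 (adjusted p = 2.34e-04), with 3 of the 5 tumours below the floor. The thioesterase Acot13 had −2.27 (adjusted p = 9.12e-05). The mitochondrial acetyl-CoA synthetase Acss1 had −1.97 (adjusted p = 0.00200). The 1 higher gene was Acot1, a cytosolic thioesterase, at 0.90 (adjusted p = 0.0489), and its groups overlapped. The Acot1 call was lost under median centring (adjusted p = 0.203), under quantile normalization (adjusted p = 0.161) and in the unscaled values (adjusted p = 0.0904), and without any 1 of muscles 1, 3 and 4 or tumours 1 to 4 (adjusted p = 0.0676 to 0.148).

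Among other genes of mitochondrial beta oxidation, 2 of 10 tested were called lower, 1 higher and 7 not at all. Over all genes tested, 18.0% were called lower and 30.1% higher, so the lower count is near the share of all genes. The median log2 fold change of the list was −0.19. Ucp3, the uncoupling protein of skeletal muscle, read 1558, 1207, 1302 and 1976 in muscle and 119, 147, 162, 134 and 211 in tumours, a log2 difference of −3.16 (adjusted p = 5.71e-06). The others called were Acad11, an acyl-CoA dehydrogenase, at −1.65 (adjusted p = 6.30e-04) and Echdc2, a hydratase-like protein, at 1.17 (adjusted p = 0.00327). Whether this list differed from the members was not tested.

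For peroxisomal oxidation, 4 of 9 tested genes were lower and 1 higher, against 18.0% and 30.1% of all genes. The transporter of very-long-chain fatty acids Abcd2 had a log2 difference of −2.62 (adjusted p = 3.32e-04), the peroxisome division factor Pex11a −1.67 (adjusted p = 0.00340) and catalase (Cat) −1.27 (adjusted p = 0.00681). Without muscle 4 the Abcd2 value was −1.60 and missed the threshold (adjusted p = 0.104). Decr2, the peroxisomal counterpart of Decr1, read 117, 367, 167 and 185 in muscle and 861, 587, 299, 371 and 540.5 in tumours, and was higher by 1.30 (adjusted p = 0.0125). The intercostal array overlapped the tumours for Decr2, and the call was lost with arrays centred on their medians (adjusted p = 0.0562).

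Of further genes of pyruvate entry and the cycle, 7 of 8 tested were called lower, against 18.0% of all genes, with a median log2 fold change of −1.83. Succinate dehydrogenase, which links the cycle to the respiratory chain, was represented by Sdhb at −2.33 (adjusted p = 1.21e-05), Sdhd at −2.27 (adjusted p = 2.96e-04) and Sdhc at −1.83 (adjusted p = 1.80e-04). Pcx, pyruvate carboxylase, which refills oxaloacetate, had −2.09 (adjusted p = 7.43e-04).

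The genes that tie the cycle to malate, aspartate and glutamate included both directions. Got1, the cytosolic aspartate aminotransferase, read 5169, 8742, 7168 and 5011 in muscle and 78.9, 150.01, 301, 248 and 589 in tumours, a log2 difference of −4.73 (adjusted p = 2.02e-05). Of the malic enzymes, the cytosolic Me1 had −3.68 (adjusted p = 1.34e-04). The mitochondrial Me3 read 1295, 700.2, 1297 and 1604 in muscle and 105, 69.3, 84.4, 69.5 and 223 in tumours, below the floor on 4 of the 5, at a fitted −3.36 (adjusted p = 3.49e-05). Me2, also mitochondrial, read 88.8, 131, 177 and 104 in muscle and 402, 1071, 523, 352 and 202 in tumours and was higher by 1.73 (adjusted p = 0.00521). The mitochondrial aspartate-glutamate carriers also differed in direction. Slc25a12 had −2.80 (adjusted p = 2.38e-04), while Slc25a13 read 23.4, 48.1, 18.1 and 30.6 in muscle, below the floor on all 4 arrays, and 135, 153, 548, 254 and 302 in tumours, where tumour 1 was below its floor too. Its level was at least 2.38-fold higher in tumours (adjusted p = 6.17e-04, or 7.14e-04 with no filter on dim genes). Slc25a13 passed the filter through tumours 2 to 5 alone, so without any 1 of these it was not tested. Pck2, the mitochondrial phosphoenolpyruvate carboxykinase, read 60.5, 243, 177 and 142 in muscle and 703, 522, 711, 760.3 and 715 in tumours and was higher by 2.15 (adjusted p = 3.13e-04). In all, 6 of 12 tested were lower and 3 higher, against 18.0% and 30.1% of all genes.

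Fatty acid synthesis had 6 of 13 tested genes called higher and 1 lower, against 30.1% and 18.0% of all genes. The median log2 fold change of the list was 0.72, or 1.48 without the intercostal array. Scd2, a stearoyl-CoA desaturase, read 1188, 1715, 1476 and 1279.8 in muscle and 8148, 12502, 10365, 9397 and 6255 in tumours, a log2 difference of 2.68 (adjusted p = 1.12e-05). The elongases Elovl1 and Elovl5 had 1.53 (adjusted p = 4.53e-04) and 1.32 (adjusted p = 0.00301), and the desaturases Fads2 and Fads1 1.28 (adjusted p = 0.0114) and 0.72 (adjusted p = 0.0126). Acly, which makes cytosolic acetyl-CoA from citrate, read 1104, 4261, 1265 and 983 in muscle and 8043, 4911, 4215, 3315 and 2761 in tumours, so that the intercostal array overlapped the tumours, and was higher by 1.47 (adjusted p = 0.0171). The lower gene was Thrsp, a lipogenic protein of liver and fat, which read 23608 on the intercostal array and 1933 ± 542 (SD, n = 3) on limb arrays, at a log2 difference of −3.95 (adjusted p = 0.0109). Thrsp was at −3.04 (adjusted p = 0.0312) without the intercostal array and at −3.21 (adjusted p = 0.0203) without tumour 3. Without the intercostal array, 8 of 12 tested genes of the list were higher, where 29.2% of all genes were. With arrays centred on their medians, 4 of 13 were higher, against 20.6% of all genes, and 2 lower, against 25.8%, and the calls of Acly (adjusted p = 0.0582) and Fads1 (adjusted p = 0.114) were among those lost. The Acly call was also lost without any 1 of the limb muscles (adjusted p = 0.0503 to 0.0584).

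Lipid stores and lipolysis had 6 of 12 tested genes lower, against 18.0% of all genes, and the others not called. Gpd1, the cytosolic glycerol-3-phosphate dehydrogenase, had a log2 difference of −4.91 (adjusted p = 5.01e-05). The lipid droplet coats Plin4 and Plin5 had −4.25 (adjusted p = 1.02e-04) and a fitted −4.15 (adjusted p = 1.96e-04). Plin5 was below the floor on 3 of the 5 tumours. G0s2, an inhibitor of triglyceride lipase, had −3.19 (adjusted p = 0.00272). On the intercostal array Plin5 held 3.30 times and G0s2 3.25 times the limb mean.

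Ketone and branched-chain amino acid oxidation had 4 of 11 tested genes lower, against 18.0% of all genes, and the others not called. The median log2 fold change of the list was −0.56. Bckdha and Dbt, subunits of the branched-chain ketoacid dehydrogenase, had −1.26 (adjusted p = 2.31e-04) and −0.99 (adjusted p = 0.00468). Oxct1, which activates ketone bodies, had −0.95 (adjusted p = 0.00604), and Hibadh, of valine breakdown, −0.86 (adjusted p = 0.00293). Under the ribosome-proteasome centring, 1 of the 11 was called lower, against 10.8% of all genes. Without tumour 1, 4 were called lower and 2 higher. With all arrays, 18.0% of all genes were lower and 30.1% higher, and these shares were not taken without tumour 1.

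Of the nuclear receptors and coactivators that are known to control oxidation genes, 7 of 10 tested were lower and the others not called. Over all genes, 18.0% were lower. Ppara, the receptor of fatty acids, read 565, 1475, 997 and 464 in muscle and 26.00, 153, 136, 101 and 62.6 in tumours, a log2 difference of −3.01 (adjusted p = 3.43e-04). Its partner Rxrg had −3.68 (adjusted p = 2.47e-05), the coactivator Ppargc1a −1.55 (adjusted p = 0.00151) and the corepressor Nrip1 −1.37 (adjusted p = 0.00418). For all 4 of these genes every tumour lay below every muscle. Of the 42 genes named from these neighbouring lists, all 42 kept their sign under the 4 other scalings and 35 kept their call. Of the 30 called lower, 14 had at least 1 tumour array below its floor, so their fitted differences rest partly on levels not above background.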

How the data were processed

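Total RNA of 5 tumours and 4 skeletal muscles was measured on 1 array each. The deposited intensities were made by the authors with MAS5, per the submitters' processing notes; its version and scaling target are not given in the sources used here. Array medians were 157 to 178, and trimmed means differed by over 10%, so arrays were scaled to a common 2% trimmed mean (factors 0.909 to 1.29). Of 30508 probe sets, 7 controls, 496 with several symbols and 4424 with none were left out. Each gene was represented by its brightest probe set, and genes at or above the 40th percentile on at least 4 arrays were tested by limma's moderated fit with an intensity trend (limma 3.58.1, R 4.3.3) on log2(intensity + 16), two-sided, with Benjamini-Hochberg adjustment over 10646 genes. The number of arrays limits the precision.

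Where all arrays of a group were under their floors, a bound is given, with those arrays at the floor. Ratios within an array used an exact permutation test. In the ratio of Pdk2 to Pdk3, Pdk3 was held at the floor where it was below it, a choice made after its levels were seen. Planned ratios with Cpt1b or Acsl1 could not be run. The members and lists were chosen with earlier results of these data known. All members are named, and from each neighbouring list up to 4 called genes with the largest change and all genes called higher. Cell type markers were used as lists, and some were named beside a member or an array, whether or not the values moved together. The erythroid, macrophage and fibroblast lists had summed levels of 304 to 4792, 4255 to 4655 and 38398 to 49956 on limb arrays and 61.6 to 166, 5513 to 12976 and 27207 to 108358 in tumours. Alternatives covered scaling, pseudocount, filter, probe set, fit, the CC17 tumours and arrays left out. The model was tested on simulated data.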

Additional observations from a re-analysis of the deposited data

Results flagged for a closer look

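An array was singled out where its distance to the nearest array of its group took up most of that group's range, by Dixon's test on log2 levels. Of 82 groups of arrays examined, 11 had such an array, where chance gives about 1 in 20, or 4.1. Of the 11, 8 were the intercostal muscle array, always as the highest muscle.

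On the intercostal array, Cd36 was at 18832, Acadm at 25211, Hadh at 30402 and Decr1 at 9069. Etfa was at 16127, Etfb at 15379.8, Pdhb at 17723 and Pdk3 at 39.9, the last below the floor. Among the tumours, Acsl3 was highest in tumour 4 at 2219, Acsl5 was highest in tumour 3 at 3489 and Ogdh was lowest in tumour 1 at 775.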

How the results depend on the processing

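Under 25 alternatives, 25 of 37 called members kept their call in the same direction in every one that gave a value, 23 lower and 2 higher; of these 25, Fh1 gave a value in 24. The median log2 fold change of the members moved to −1.93 with arrays centred on their medians, −1.37 under quantile normalization and −1.24 under the ribosome-proteasome centring. Leaving out each array in turn gave 31 to 34 lower members, 2 to 4 higher members and a median of −1.70 to −1.48. It gave log2 ratio differences of −5.90 to −5.61 for Pdk2 to Pdk3 with Pdk3 at the floor, a treatment chosen after seeing the data, and −2.68 to −2.31 for Sucla2 to Suclg2. Also chosen so, leaving out the intercostal array with tumour 2 gave −5.75 and −2.71, and leaving it out with tumour 5 gave −5.97 and −2.59. With Pdk3 as read in muscle, below background, the Pdk2 to Pdk3 values were −7.98 to −7.45, −7.83 and −8.04, which are no exact sizes. With both arrays left out, the exact permutation p of each ratio, adjusted over 2 pairs, was 0.0571, the smallest that 7 arrays allow. Genes not called changed sign. Pdk1 was at −0.018 with arrays centred on their medians and −0.83 with only probe sets ending in _at, and Idh2 was at 0.13 with ribosome-proteasome centring. Acsl3 was at 0.31 with that centring, 0.14 with all probe sets averaged, 0.19 with only _at probe sets, 0.12 with array weights and 0.0083 with the CC17 tumours averaged, and between −0.37 and 0.11 with 1 array left out, above 0 without muscle 3, tumour 1 or tumour 3. Calls were lost under 14 alternatives for Pdha1, 8 for Acsl4, 7 for Echs1, 6 for Acsl5, 3 for Hadh, 2 for Idh3a and 1 each for Acaa2, Decr1, Hadha, Slc25a20, Dlst and Cd36. For Acaa2, Decr1 and Hadha this was the ribosome-proteasome centring, and for Cd36 it was the intercostal array and tumour 2 left out (adjusted p = 0.0642). Suclg2 became called under 2 alternatives, without tumour 1 and with array weights, and Pdk1 under 1. The cause of these changes was not tested. With only _at probe sets Fh1, Idh3a and Suclg2 have none, so the Suclg2 ratio has no value, Idh2 fell under the stricter filter, and centring cancels in ratios. The CC17 pair as a random block could not be fitted, with 1 pair in all. No paired analysis was possible because the labels give the groups no shared replicate numbers. Levels near the floor, such as those of Idh2 and of Pdk3 in muscle, carry little signal over background.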
